A study of Homo sapiens with 51 samples.

Results

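Chromatin accessibility of wild-type H1 cells, an established human embryonic stem cell line, was compared between day 4 and day 1 of neural induction. The induction medium, labelled SMADi, comes from a commercial kit that blocks SMAD signalling. Day 1 and day 4 had 2 libraries each, so 4 of the series' 51 libraries enter the comparison, and their group labels alone chose them. ATAC-seq uses a transposase that cuts open DNA, and the reads in a region measure how open it is.

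All groups were H1 cells seeded as single cells with a ROCK inhibitor on day 0 and fed daily, and they differed in genotype (WT, KO or DATG) and in the day of harvest. WT was sampled at days 1, 4 and 5, KO and DATG served here as genotypes for comparison, and days 2 and 3 are not analysed here. The labels do not name what KO and DATG edit, whether a line is a single clone, or whether libraries a and b came from separate cultures. P-values therefore measure only the spread between these libraries, which may be technical. There is no untreated group in the same table, so time in the medium, time in culture and recovery from seeding cannot be told apart. In bulk libraries a change in the share of a cell type and a change in accessibility per cell cannot be told apart either.

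As background, pluripotent human cells keep POU5F1, SOX2 and NANOG active with the help of Nodal and Activin signals, which act through SMAD2 and SMAD3. BMP signals act through other SMADs and favour amnion and mesoderm. When both branches are blocked, cells turn to neuroectoderm, lose POU5F1, keep SOX2, and switch on PAX6 and forebrain factors such as SIX3, HESX1 and RAX, while N-cadherin (CDH2) replaces E-cadherin (CDH1).

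Total counts were 15698020 and 14474070 at day 1 and 15478386 and 15750197 at day 4, within a range of 7086918 to 23252871 over the 15 SMADi libraries. Counts within 1 kb of a gene start made up 40.0% to 43.9% of the total in the 4 libraries. Replicates correlated at r = 0.965 at day 1 and 0.947 at day 4 (log2 CPM across regions, where CPM is a count scaled to the same effective library size). The library labelled KO day 1 replicate b was in doubt. At 35 regions that separated KO from DATG more than 4-fold at days 4 and 5, it lay closer to DATG at 34, as did the DATG day 1 library at 31, while KO day 1 replicate a did so at 1. Without it the WT comparison called 52363 regions, against 53684 with it.

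The labels name neural progenitor cells as the aim of the induction. The 7 neuroectoderm markers together held 799 and 849 CPM at day 1 and 1020 and 955 CPM at day 4, and 2 of the 7 rose (SOX2 and SIX3). For the 5 markers of undifferentiated cells the sums were 313 and 330 CPM at day 1, 298 and 277 at day 4 and 219 and 223 at day 5, and 1 of the 5 fell (POU5F1). Markers of other cell types moved too: 2 of 4 measured neural crest markers and 1 of 4 neuron markers rose. Of the endoderm markers 2 of 3 fell, as did 1 of 3 measured endothelial and blood markers. None of the 5 streak and mesoderm or the 4 amnion and trophoblast markers passed the test. Over all genes 19.0% rose and 15.9% fell, and these short lists were not tested against those shares. Every marker list had reads at both days, and open chromatin is not expression. What part other cell types had in the results was not tested.

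The sequences of 6 gene starts from these lists whose accessibility changed are given first, because each lies at a start of a gene of these programmes and passed the test. Each is the part of a measured region that overlaps a RefSeq start sequence (GRCh38.p14), written 5′ to 3′ on the gene's strand. Capitals mark matches, on either strand, to the short motifs searched: TAATTA (homeodomain), ACAAAG and AACAATGG (SOX), TGANTCA (AP-1), CAGCTG and CAGATG (E-box) and the others named later. The AP-1 and CAGATG matches at CDH2 overlap. OTX2 and TBXT held no match in these windows. A match is a description of letters only.
CDH2, chr18:28036651-28036851, minus strand: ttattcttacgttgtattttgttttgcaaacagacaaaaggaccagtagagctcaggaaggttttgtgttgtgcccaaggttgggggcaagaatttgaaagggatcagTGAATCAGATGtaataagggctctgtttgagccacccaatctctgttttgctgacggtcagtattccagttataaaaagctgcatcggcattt
OTX2, chr14:56810439-56810639, minus strand: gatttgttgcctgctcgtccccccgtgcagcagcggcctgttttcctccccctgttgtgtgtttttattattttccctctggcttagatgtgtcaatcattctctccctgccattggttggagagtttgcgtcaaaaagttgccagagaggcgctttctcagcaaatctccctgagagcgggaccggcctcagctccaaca
PAX6, chr11:31807626-31807826, minus strand: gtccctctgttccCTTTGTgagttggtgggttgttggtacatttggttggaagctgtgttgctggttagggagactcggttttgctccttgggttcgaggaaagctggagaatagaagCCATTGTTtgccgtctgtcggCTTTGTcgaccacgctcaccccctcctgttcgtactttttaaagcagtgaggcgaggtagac
HESX1, chr3:57199929-57200099, minus strand: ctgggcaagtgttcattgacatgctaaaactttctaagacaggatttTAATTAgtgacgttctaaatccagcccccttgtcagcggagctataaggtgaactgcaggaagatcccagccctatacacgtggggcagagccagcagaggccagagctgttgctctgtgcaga
GATA3, chr10:8054498-8054698, plus strand: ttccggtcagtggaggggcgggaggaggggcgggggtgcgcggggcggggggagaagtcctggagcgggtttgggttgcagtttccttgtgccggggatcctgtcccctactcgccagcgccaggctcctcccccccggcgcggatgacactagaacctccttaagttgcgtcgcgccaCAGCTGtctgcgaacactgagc
TBXT, chr6:166168757-166168905, minus strand: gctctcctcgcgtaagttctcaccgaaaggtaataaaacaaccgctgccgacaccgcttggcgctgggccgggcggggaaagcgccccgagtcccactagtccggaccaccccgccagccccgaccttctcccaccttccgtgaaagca

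The region at this CDH2 start, a start of N-cadherin, held 0.0601 and 0.325 CPM at day 1 and 2.32 and 1.68 CPM at day 4, a log2 change of 3.36 ± 0.51 (SE; edgeR adjusted p = 9.13e-07). The OTX2 region, at a start of the forebrain and midbrain homeodomain factor, went from 0.601 and 0.585 CPM to 4.38 and 3.61 CPM (2.74 ± 0.36, adjusted p = 6.29e-08). At HESX1, a homeodomain repressor of the anterior neural plate, it went from 13.6 and 13.1 CPM to 24.9 and 29.3 CPM (1.02 ± 0.15, adjusted p = 6.89e-07). At these 3 starts both day 4 libraries lay above both day 1 libraries. The PAX6 region, at a start of the neuroectoderm selector, rose by 1.74 ± 0.30 (adjusted p = 8.33e-06). In the opposite direction, starts of GATA3, a factor of amnion and trophoblast, and of TBXT, the primitive streak factor, fell by 1.1 ± 0.29 (adjusted p = 0.00244) and 1.09 ± 0.39 (adjusted p = 0.0256). Other regions near GATA3 and TBXT rose, and neither gene's summed regions passed the test. Most other regions near starts of CDH2 and PAX6 did not change. Within 1 kb 2 of 6 CDH2 regions, 2 of 4 OTX2 regions and 2 of 18 PAX6 regions rose, and 0 fell. Another CDH2 region at a start was more open and unchanged, at 6.37 and 6.24 CPM at day 1 and 6.32 and 6.85 CPM at day 4 (0.06 ± 0.19, adjusted p = 0.842).

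Over the regions of this table, accessibility changed widely and gains outnumbered losses. Of 162313 tested regions, 53684 (33.1%) passed an adjusted p of 0.05, of which 33573 (20.7%) were higher at day 4 and 20111 (12.4%) lower. Regions that rose went from a median of 1.23 CPM to 4.40 CPM with a median log2 change of 1.67, and regions that fell went from 5.57 to 2.56 CPM with a median of -1.02. Changes above 8-fold numbered 5399 upward and 399 downward. In 33527 of the higher regions both day 4 libraries lay above both day 1 libraries. The regions were called on these same libraries, so that separation largely follows from the call and adds no support. No read was found in either day 1 library at 177 of the higher regions. With each of these 4 libraries left out in turn the count of calls fell to 38813 (without day 1 replicate a) at the lowest.

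Gains lay mostly away from gene starts. For 10953 of 38147 genes the annotation used gives no strand, and distance was then taken to the nearer gene end. Within 1 kb of a start, 6.47% of 46855 regions rose and 9.61% fell. At 1 to 10 kb 20.5% rose and 14.4% fell, at 10 to 50 kb 27.5% and 13.8%, and beyond 50 kb 34.0% of 25729 regions rose and 11.5% fell. Thus the share that rose grew with each step of distance, while the share that fell stayed between 9.61% and 14.4%. With scaling taken from distal regions only, a choice made after seeing the data, the share within 1 kb that fell was 14.6%. Over only those regions whose nearest gene has a strand, also a later choice, 5.9% rose within 1 kb and 34.2% beyond 50 kb.

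**Figure D1:**
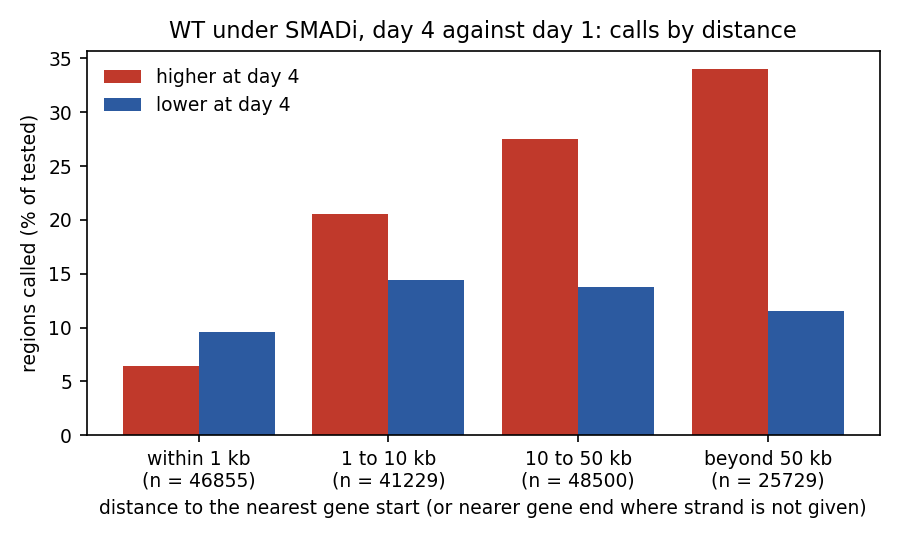
Share of tested regions (y axis, percent) called higher or lower at day 4 in WT, by distance to the nearest gene start or, without a strand, gene end (x axis, with the number of regions in each class). Red bars climb from 6.47% within 1 kb to 34.0% beyond 50 kb, while blue bars range from 9.61% to 14.4%.

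For a value per gene, counts were summed over the regions whose nearest gene, coding or not, lay within 50 kb. Of 31392 genes, 10940 (34.8%) passed, 5952 (19.0%) upward and 4988 (15.9%) downward, with a median log2 change of -0.02 over all genes. Where regions around a gene are counted singly, each is assigned to its nearest protein-coding gene, and the background is then 15.2% higher and 12.7% lower of 112181 regions.

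Genes of pluripotency lost accessibility more often than they gained it. Of 24 measured core and primed pluripotency genes, 10 fell and 3 rose (median -0.15). Of their 278 regions 23.0% fell and 19.4% rose, both above the background of 12.7% and 15.2%. With only regions within 1 kb the list median was 0.04. POU5F1, the central pluripotency factor, had summed levels of 36.7 and 36.3 CPM at day 1 and 22.2 and 19.2 CPM at day 4. The groups did not overlap, and POU5F1 fell by 0.82 ± 0.15 (adjusted p = 8.59e-05). Its region at chr6:31172015-31172215, 1333 bp from the nearer end of the gene, held 16.3 and 17.1 CPM at day 1 and 6.07 and 4.36 CPM at day 4. At day 5 it held 1.47 and 3.11 CPM, below both earlier days.

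Neither NANOG nor PRDM14, factors that act with POU5F1, passed the test. NANOG held 29.8 and 26.1 CPM at day 1 and 27.5 and 25.0 CPM at day 4 (-0.09 ± 0.13, adjusted p = 0.626). PRDM14 was at -0.03 ± 0.07 (adjusted p = 0.775), with 3 of its 17 regions higher and 4 lower. Members that rose were LIN28A, LIN28B and TRIM71, which are RNA-binding regulators of the let-7 pathway and are also expressed in neural progenitors. LIN28A went from 121 and 128 CPM to 176 and 182 CPM (0.52 ± 0.06, adjusted p = 1.18e-07), and a region 108 bp outside an end of the gene (chr1:26429836-26430036) rose from 2.46 and 2.08 CPM to 18.5 and 18.7 CPM. In the naive pluripotency list 2 of 12 genes rose and 4 fell. DPPA3, a maternal-effect factor, rose by 3.67 ± 0.42 over its 1 region (adjusted p = 2.35e-08) and KLF17 by 1.05 ± 0.22 (adjusted p = 0.000403), while TFCP2L1 fell by 0.63 ± 0.11 (adjusted p = 3.41e-05).

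The Nodal ligand and its co-receptor fell. NODAL held 107 and 106 CPM at day 1 and 55.7 and 56.2 CPM at day 4, and these groups were far apart compared with their spread (-0.93 ± 0.08, adjusted p = 1.36e-10). Of its 15 regions 8 fell and 0 rose. CRIPTO, the co-receptor of Nodal, fell by 0.51 ± 0.11 (adjusted p = 0.000748), and at chr3:46587327-46587527, 9539 bp from its start, the reads were 53 and 42 at day 1 and 2 and 2 at day 4. LEFTY1 and LEFTY2, the secreted inhibitors induced by Nodal, fell by 0.59 ± 0.14 (adjusted p = 0.00104) and 0.33 ± 0.12 (adjusted p = 0.0244). The list as a whole was split, with 6 of 20 measured genes higher and 6 lower (median -0.15). Those that rose include the activin receptor ACVR2A (0.81 ± 0.11, adjusted p = 2.67e-07), the secreted Nodal and BMP antagonist CER1 (1.09 ± 0.19, adjusted p = 2.38e-05) and the organizer factor GSC (0.47 ± 0.09, adjusted p = 8.31e-05).

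In the BMP list 4 of 26 genes rose and 0 fell (median 0.04), beside 19.0% and 15.9% of all genes. Gains were thus no more frequent than over all genes, and losses were fewer. Of its 429 regions 18.9% rose and 6.76% fell, beside a background of 15.2% and 12.7%. Receptors and a ligand led those that rose: BMPR1B rose by 0.51 ± 0.08 (adjusted p = 1.17e-05), BMP7 by 0.68 ± 0.14 (adjusted p = 0.000247) and BMPR1A by 0.26 ± 0.07 (adjusted p = 0.00704). Around BMP7, 15 of 38 regions rose and 1 fell. The direct BMP targets ID1 (-0.17 ± 0.09, adjusted p = 0.128), ID3 (0.19 ± 0.09, adjusted p = 0.103) and SMAD7 (0.02 ± 0.07, adjusted p = 0.876) did not pass. Single regions near them did change: at chr20:31606590-31606790, 1301 bp from ID1, accessibility went from 11.7 and 12.2 CPM to 3.94 and 3.74 CPM (-1.64 ± 0.24, adjusted p = 6.17e-07). With regions assigned to protein-coding genes only, ID3 was at -0.23, the opposite sign.

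Some forebrain genes gained accessibility at selected regions, and so did genes of other lists. SIX3, a homeodomain factor of the anterior neural plate, went from 142 and 156 CPM to 230 and 224 CPM (0.61 ± 0.06, adjusted p = 1.01e-09). HESX1 went from 26.0 and 26.2 CPM to 47.3 and 49.7 CPM (0.90 ± 0.11, adjusted p = 8.8e-08). In both genes the day 4 libraries lay well above the day 1 libraries. RAX, the eye field factor, rose by 0.37 ± 0.07 (adjusted p = 7.92e-05) and FEZF2, a forebrain repressor, by 0.33 ± 0.09 (adjusted p = 0.0059). Over the anterior neural list 5 of 20 genes rose and 2 fell (median 0.06), beside 19.0% and 15.9% of all genes. The 2 were LHX5 (-0.29) and EMX1 (-0.26), both of which change sign to 0.10 and 0.02 with only regions within 1 kb. Among lists of other fates, 21.0% of streak and nascent mesoderm regions, 20.1% of neural crest and placode regions and 13.0% of amnion and trophoblast regions rose. Of the 508 regions of the anterior neural list 20.7% rose and 9.25% fell, beside a background of 15.2% and 12.7%. At starts the picture was different: of 22 start regions of this list, 8 rose and 0 fell, against 4.46% and 8.26% of all 17004 starts with a region. FEZF1 (1.12), NKX2-1 (1.26) and SIX6 (0.87) were among them.

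Within these loci opening and closing lay side by side. Outside SIX3, 26815 bp from the nearer end of the gene, chr2:44972886-44973086 held 0.781 and 0.975 CPM at day 1 and 17 and 17.9 CPM at day 4 (4.30 ± 0.25, adjusted p = 2.41e-17). Inside the gene, chr2:44943612-44943812 fell from 3.84 and 4.81 CPM to 0.689 and 0.561 CPM (-2.77 ± 0.38, adjusted p = 9.35e-08). Altogether 19 of 55 SIX3 regions rose and 10 fell. Near POU3F1, a POU factor of epiblast and early neural cells, chr1:38042033-38042233 rose from 0.901 and 0.585 CPM to 16.6 and 15.3 CPM (4.40 ± 0.26, adjusted p = 3.04e-17), and its neighbour at chr1:38041658-38041858 went from 1 and 2 reads to 133 and 120 reads. A region 1119 bp from the start fell by 1.65 ± 0.32 (adjusted p = 7.02e-05). The summed POU3F1 value rose (0.61 ± 0.11, adjusted p = 4.63e-05) but was -0.72 with only regions within 1 kb, so its direction depends on the window.

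SOX2, shared by pluripotent and neural cells, went from 168 and 196 CPM to 268 and 241 CPM (0.49 ± 0.07, adjusted p = 6.87e-07), with 14 of 38 regions higher and 1 lower. All 14 lay more than 1 kb from the start: within 1 kb, 0 of 4 regions changed and the summed value was -0.14. For SOX21, a partner of SOX2, the sum over its 5 nearest regions fell by 0.58 ± 0.14 (adjusted p = 0.00143), yet 12 of 27 regions assigned to it among protein-coding genes rose and the sum was then 0.53. SOX11 fell by 0.35 ± 0.10 (adjusted p = 0.00433) and was at 0.40 within 1 kb.

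**Figure D2:**
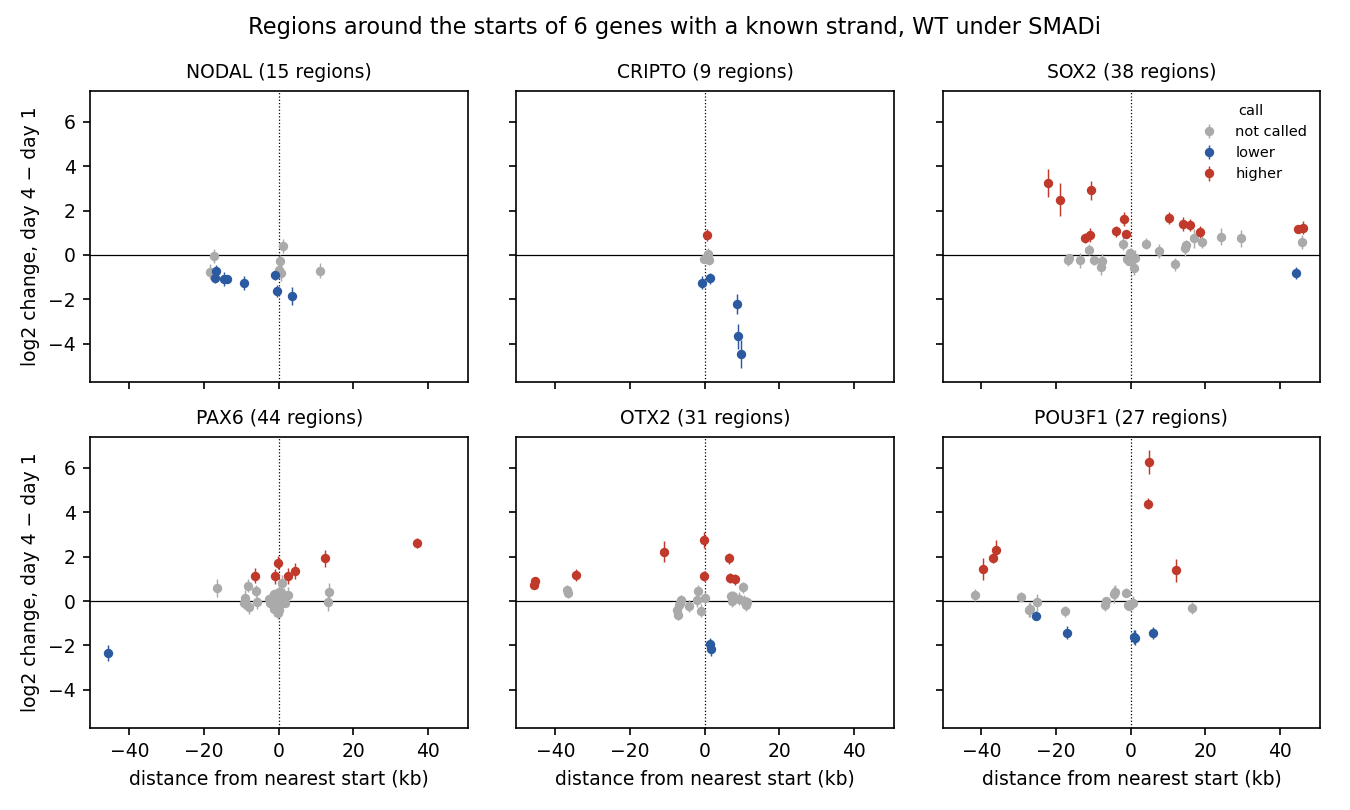
Log2 change from day 1 to day 4 (y axis, with SE) of each region against its signed distance from the nearest start of the gene (x axis, kb, positive downstream) at 6 genes with a strand in the annotation. NODAL has 8 lower and 0 higher regions, SOX2 has 14 higher regions, CRIPTO has 5 lower regions, and OTX2 and POU3F1 hold both kinds, with changes up to 2.74 and 6.28.

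PAX6 itself changed little as a sum. It held 161 and 168 CPM at day 1 and 183 and 171 CPM at day 4 (0.11 ± 0.06, adjusted p = 0.17), with 7 of 44 regions higher and 1 lower. A region within the neighbouring gene ELP4, chr11:31763386-31763586, went from 2.34 and 2.53 CPM to 14.1 and 15.8 CPM (2.61 ± 0.22, adjusted p = 4.58e-13). OTX2 was at 0.05 ± 0.13 (adjusted p = 0.787). Of 31 regions assigned to it among protein-coding genes 9 rose and 2 fell, and a region inside the gene at chr14:56808594-56808794 fell by 2.16 ± 0.32 (adjusted p = 5.23e-07). SOX1, SOX3, LHX2, ZIC1, POU3F2 and HES5 also did not pass, with values between -0.20 (HES5) and 0.19 (POU3F2).

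Among other progenitor genes, 11 of 25 neural progenitor factors rose and 3 fell (median 0.19). LIX1 rose by 0.77 ± 0.10 (adjusted p = 1.71e-07), PLAGL1 by 0.52 ± 0.07 (adjusted p = 3.42e-07) and SOX6 by 1.40 ± 0.19 (adjusted p = 4.01e-07), and SOX9 fell by 0.43 ± 0.08 (adjusted p = 7.8e-05). In the PAX and ZIC list 5 of 11 rose and 0 fell (median 0.23). PAX7, a dorsal neural and neural crest factor, had 172 and 166 CPM at day 1 and 246 and 245 CPM at day 4 (0.54 ± 0.05, adjusted p = 1.94e-09). With 20 of its 44 regions higher and 1 lower, PAX7 had more regions that rose than any other protein-coding gene, and the median over all 44 was 0.84. In the Notch and neurogenesis list 9 of 30 rose and 1 fell. JAG1, a Notch ligand, rose by 0.49 ± 0.06 (adjusted p = 1.37e-07), DCX, a microtubule protein of young neurons, by 1.18 ± 0.17 (adjusted p = 2.44e-06) and LFNG, a Notch modifier, by 0.37 ± 0.06 (adjusted p = 2.66e-05). The member that fell, NEUROG2 (-0.72), was at 0.27 with protein-coding genes only.

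**Figure D3:**
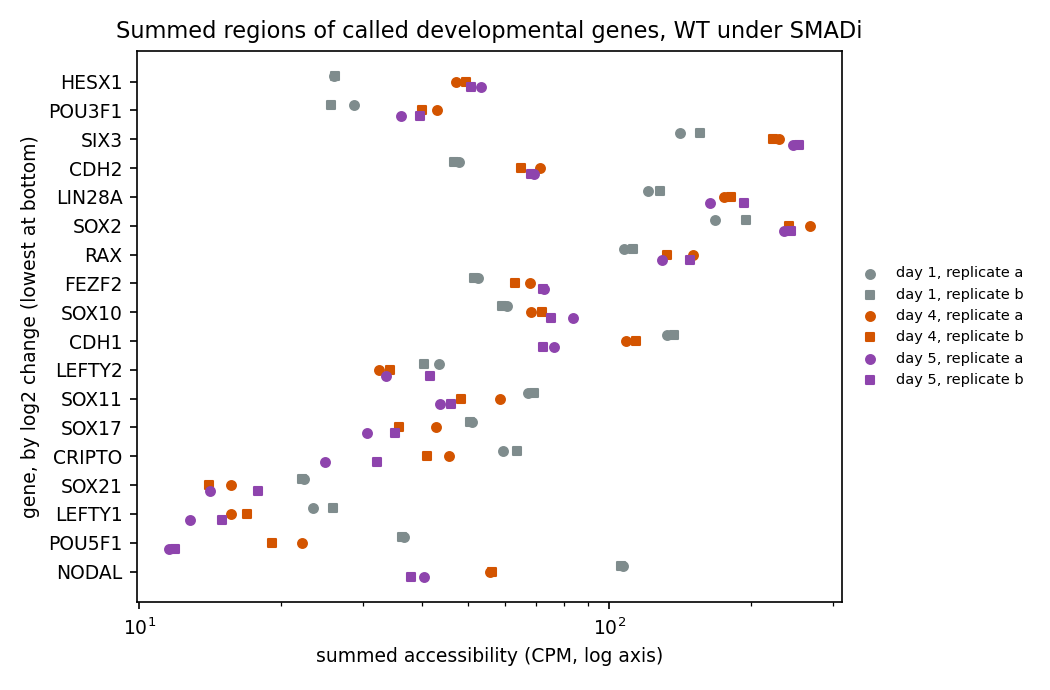
Summed accessibility (x axis, CPM, log scale) in each WT library of days 1, 4 and 5 for the 18 anchor genes that passed the test, ordered by log2 change with the lowest at the bottom. Circles are replicate a and squares replicate b. For POU5F1 the day 5 libraries, at 11.6 and 11.9 CPM, lie below those of day 4.

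CDH2 gained and CDH1 lost accessibility. CDH2 went from 48.0 and 46.7 CPM to 71.3 and 64.8 CPM (0.52 ± 0.08, adjusted p = 4.88e-06). CDH1 went from 133 and 137 CPM to 109 and 114 CPM (-0.28 ± 0.07, adjusted p = 0.00256). Both genes' day 4 libraries lay outside the day 1 range. Inside CDH1, chr16:68778990-68779190 fell by 2.30 ± 0.23 (adjusted p = 9.18e-11) while chr16:68793394-68793594 rose by 2.02 ± 0.33 (adjusted p = 3.95e-06). Of 18 epithelial junction genes 5 fell and 2 rose (median -0.11), beside 15.9% and 19.0% of all genes. Of their 184 regions 14.1% fell and 14.7% rose, near the background of 12.7% and 15.2%. Those that fell were led by the membrane protease gene ST14 (-0.91 ± 0.11, adjusted p = 8.94e-08), P-cadherin CDH3 (-0.56 ± 0.08, adjusted p = 3.47e-06) and the splicing regulator ESRP2 (-0.45 ± 0.07, adjusted p = 5.97e-06). Of the N-cadherin and mesenchymal list 5 of 16 rose and 2 fell. ZEB2, a repressor of epithelial genes, rose by 1.83 ± 0.29 (adjusted p = 5.52e-06) over 1 region at its start. VIM fell by 0.44 (0.06 with protein-coding genes only).

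Signalling and patterning lists mostly leaned upward in summed counts, beside 19.0% of all genes higher and 15.9% lower. With only regions within 1 kb the lean was smaller or absent. List medians went from 0.153 to 0.078 for WNT and from 0.071 to 0.057 for FGF. They went from 0.155 to -0.07 for retinoic acid and from 0.118 to 0.003 for axon guidance. In the WNT list 8 of 21 rose and 2 fell: the secreted antagonist SFRP1 rose by 0.72 ± 0.06 (adjusted p = 1.08e-10) and the feedback gene AXIN2 by 0.34 ± 0.06 (adjusted p = 5.21e-05), while WNT5A fell by 0.27 ± 0.09 (adjusted p = 0.021). In the FGF list 6 of 21 rose and 1 fell. FGF17 rose by 1.25 ± 0.24 (adjusted p = 0.000125), the feedback gene SPRY1 by 0.34 ± 0.07 (adjusted p = 0.000217), and DUSP5 fell by 0.56 ± 0.07 (adjusted p = 3.31e-07). SPRY4 rose by 1.81 but was -0.38 with protein-coding genes only. Retinoic acid genes rose in 8 of 16 cases and fell in 1, with the receptors RXRG at 0.66 ± 0.10 (adjusted p = 1.72e-06) and RXRA at 0.42 ± 0.07 (adjusted p = 2.16e-05). Of 34 axon guidance genes 13 rose and 3 fell: ROBO2 rose by 0.91 ± 0.09 (adjusted p = 1.36e-09) and its ligand gene SLIT1 by 0.90 ± 0.10 (adjusted p = 1.24e-08).

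Lists of other fates differed among themselves. Of 18 amnion and trophoblast genes 1 rose and 1 fell, and of 14 lateral plate and cardiac genes 2 rose and 1 fell. Streak and nascent mesoderm genes rose in 5 of 17 cases and fell in 0. At 10 to 50 kb 30 of their 67 regions (44.8%) rose and 3 fell, beside 23.8% and 15.0% of all protein-coding regions at that distance, and within 1 kb 5 of 66 (7.58%) rose and 8 (12.1%) fell, beside 5.13% and 8.92%. Of 12 endoderm genes 4 rose and 2 fell: AFP, a fetal liver and yolk sac protein, rose by 0.58 ± 0.13 (adjusted p = 0.000978) and the chemokine receptor CXCR4 by 0.36 ± 0.11 (adjusted p = 0.00812), while the endoderm factors FOXA2 and SOX17 fell by 0.42 ± 0.10 (adjusted p = 0.00213) and 0.37 ± 0.12 (adjusted p = 0.0148). Neural crest and placode genes rose in 5 of 18 cases and fell in 0, with SOX10, the crest factor, at 0.23 ± 0.08 (adjusted p = 0.0274). For HOX and CDX genes, which pattern the trunk, 3 of 40 rose and 7 fell, and their regions changed rarely (8.47% higher, 7.63% lower of 236). Among YAP and TEAD targets 2 of 14 rose and 2 fell, but 21.8% of their 179 regions fell, and 33.8% of the 80 that lay 10 to 50 kb away.

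The single regions with the greatest gains started from almost nothing. Beside KCNJ13, a potassium channel gene, chr2:232793375-232793575, which lies in the gene GIGYF2, had 0 and 0 reads at day 1 and 47 and 56 at day 4, at least 34.3-fold higher taking 3 reads over both day 1 libraries as the floor. Near MAGI1, a junction scaffold, chr3:66067193-66067393 had 0 and 1 reads and then 157 and 204, a ratio of 361 (95% exact counting interval 64.4 to 14300). In WDR36 chr5:111113739-111113939 had 0 and 0 and then 29 and 39, at least 22.7-fold higher. The others named by the rule lay near NEUROD4, a proneural factor (ratio 150, interval 26.5 to 5960), SLC9A4, TPGS2, ARHGEF3 and FBXL14, with ratios from 102 to 150. At all 8 the day 5 libraries were also above both day 1 libraries, as were the day 4 DATG and KO libraries. At none of the 8 was the WT change shown to differ from either mutant. The rule asked for at least the median level averaged over all 15 libraries, day 5 and mutant libraries included. It thus favoured regions high in those libraries too, and their levels add no support.

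The greatest losses were smaller. In TCF7L2, a WNT effector, chr10:113087451-113087651 went from 14 and 14.5 CPM to 1.06 and 0.623 CPM (-4.06 ± 0.28, adjusted p = 3.47e-15). Beside LMOD2, in the gene WASL, chr7:123692583-123692783 fell from 18.1 and 15.9 CPM to 0.626 and 1.43 CPM (-4.03 ± 0.29, adjusted p = 1.27e-14). Others lay in or near FADS1, a fatty acid desaturase (-3.79), TTC9 (-3.73), TRPM1 (-3.68), GULP1 (-3.68), the adhesion protein PXN (-3.56) and LOC105375107 (-3.35). Groups did not overlap at any of the 8, which were picked among called regions for their large changes. TRPM1 went both ways, as its start at chr15:31101814-31102014 rose from 0.601 and 0.910 CPM to 7.39 and 9.84 CPM (3.51 ± 0.32, adjusted p = 7.79e-12).

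By summed counts the 8 protein-coding genes with the smallest p upward were TAL2, GHRH, CMKLR2, DNAJC24, LMNTD1, RSPO1, TOX3 and HABP2. TAL2, a basic helix-loop-helix factor, went from 11.7 and 12 CPM to 77.1 and 79.1 CPM over 8 regions (2.72 ± 0.10, adjusted p = 1.13e-18). CMKLR2, a chemerin receptor, went from 13.4 and 11.6 CPM to 53.8 and 49.1 CPM (2.04 ± 0.12, adjusted p = 4.28e-14). These genes were picked by smallest p, so a change many times its SE follows from that choice. RSPO1, a WNT agonist, rose by 1.40 ± 0.09, but was at -0.19 with only regions within 1 kb. Downward they were OR1F1, RAB26, LRRC75A, LOC105375107, EVA1B, RPL3, RCC1 and ARC. OR1F1, an olfactory receptor gene, went from 300.5 and 317 CPM to 127 and 122 CPM (-1.31 ± 0.07, adjusted p = 1.69e-15), with 20 of 27 regions lower.

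The regions around OR1F1 include a cluster of tRNA genes: all 12 of its regions at a tRNA gene fell, as did 4 of 4 at LOC105375107 and 8 of 8 at PRSS16. This class was then examined as a whole, a choice made after seeing the values. Transfer RNA genes are short, transcribed by RNA polymerase III, and near-identical copies make the assignment of reads to a copy uncertain. Of 326 regions at tRNA genes, 207 (63.5%) fell and 1 (0.307%) rose, against 12.4% and 20.7% of all regions. Their median level was 11 and 12.1 CPM at day 1, 6.92 and 5.98 CPM at day 4, and 5.15 and 6.69 CPM at day 5. Both day 4 libraries lay below both day 1 libraries at 77.0% of them, against 31.9% of all regions.

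At TRK-CTT2-5, a lysine tRNA gene at chr16:3175553-3175753, accessibility fell from 18.8 and 20.3 CPM to 4.63 and 2.68 CPM (-2.42 ± 0.22, adjusted p = 3.19e-12). TRA-TGC7-1, an alanine tRNA gene at chr6:28802707-28802907, went from 13.6 and 14.1 CPM to 2.50 and 1.99 CPM (-2.62 ± 0.25, adjusted p = 1.33e-11). The region near LOC105375107 named above holds TRV-TAC4-1, a valine tRNA gene. The small nuclear RNA genes, also multicopy and needed for splicing, fell at 27 of 45 regions and rose at 0, with RNU5F-1 at -2.44 ± 0.22 (adjusted p = 5.45e-12). By contrast 40 of 251 regions at microRNA genes (15.9%) fell and 28 rose. Among the regions with the highest average CPM (the top 25%) 8.52% fell.

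Ribosomal protein genes, kept as a control list, fell too: 12 of 42 fell and 1 rose (median -0.16), and 73 of 218 regions (33.5%) fell. The losses lay mostly 1 to 10 kb from the starts, or from the nearer gene end where no strand is given. At 10 to 50 kb 14 of 64 regions (21.9%) fell and 15 (23.4%) rose, beside 15.0% and 23.8% of all protein-coding regions at that distance. Within 1 kb 9 of 85 regions fell, and at 1 to 10 kb 50 of 69 (72.5%) fell and 2 rose, with a median log2 change of -1.18 against 14.6% lower of all protein-coding regions at that distance. The levels of these 69 regions had medians of 6.49 and 6.24 CPM at day 1 and 2.75 and 2.93 CPM at day 4. They came from 24 genes, 22 of which had at least 1 lower region there. At the 19 of these genes with a strand 42 of 58 regions at that distance (72.4%) fell. Of 16 regions lying inside the gene itself 12 (75.0%) fell. RPL3 fell by 0.79 ± 0.06 (adjusted p = 2.66e-11), with 8 of 8 regions at 1 to 10 kb lower, and its regions within 1 kb of a start alone gave 0.03. RPS2 fell by 1.38 ± 0.16 (adjusted p = 2.97e-08) and RPL13 by 0.63 ± 0.07 (adjusted p = 1.23e-08). RPS23 rose by 0.30 but was -0.19 within 10 kb.

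**Figure D4:**
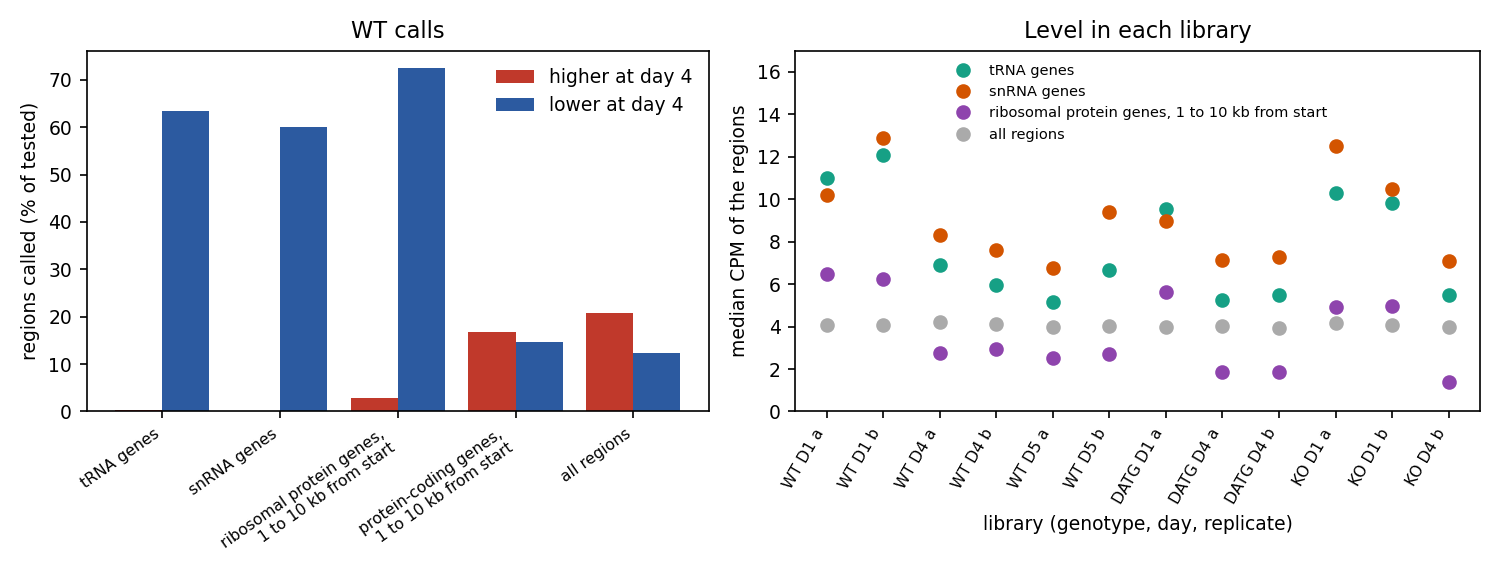
Left, share of regions called higher or lower at day 4 in WT (y axis, percent) at tRNA genes, snRNA genes, ribosomal protein genes 1 to 10 kb from the start, all protein-coding genes at that distance, and all regions. Right, median CPM of the same regions in each library of the 3 genotypes; tRNA medians drop from 11 and 12.1 at WT day 1 to 6.92 and 5.98 at day 4, and the median of all regions stays near 4.

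Gene starts themselves rarely opened. Of 17004 start sequences with a region over at least 100 bp, 759 (4.46%) rose and 1405 (8.26%) fell. The starts with the smallest p among those that rose include TP53TG5 (3 and 1 reads at day 1, 89 and 85 at day 4), WSCD1 (4.33 ± 0.36), CRYBA1, a lens crystallin (3.21 ± 0.30), and RD3, a photoreceptor gene (2.76 ± 0.25). ADAP1 (-2.67 ± 0.21), MBNL2 (-2.45 ± 0.28) and LCK (-2.11 ± 0.20) are examples among those that fell. These were chosen after their values were seen. Starts that rose had a median GC content of 61.0%, those that fell 65.0% and those not called 66.3%.

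Short motifs were counted in these start sequences on both strands, and the shares describe letters and not bound factors. GGATTA, the letters bound by OTX factors, was in 14.1% of the starts that rose, 2.85% of those that fell, 3.89% of those not called and 6.36% of all start sequences. TAATTA, the homeodomain core, was in 7.25%, 0.925%, 1.60% and 4.84% in the same order. ACAAAG, a SOX core, was in 22.3%, 11%, 10.8% and 16.1%, as at the PAX6 start printed above. All 3 were more frequent in starts that rose than in any other class. TGANTCA, the AP-1 letters, was most frequent in starts that fell (10.5%, against 4.87% of those that rose, 3.62% not called and 7.71% of all), so the CDH2 start, which holds it and rose, goes against that order. CAGCTG was in 24.1%, 18.1%, 17.6% and 17.9%, and AGATAA, the GATA letters, in 8.83%, 3.20%, 4.29% and 10.3%. TGCATNACA, the OCT4-SOX2 composite, was in under 1% of every class. The classes also differ in GC content, as given above, and its part in these shares was not tested.

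The WT change was then tested against the same change in the other genotypes, as an interaction. It differed from the DATG change at 19271 regions (11.9%), with the WT change above at 13608 (8.38%) and below at 5663 (3.49%), and from the KO change at 18078 (11.1%), above at 12819 (7.9%) and below at 5259 (3.24%). By summed counts 15.0% of genes differed from DATG (8.46% above, 6.52% below) and 12.7% from KO (7.63% above, 5.05% below). DATG day 1 and KO day 4 had 1 library each. These counts depend on single libraries. The DATG count was 12096 without WT day 1 replicate b, 12712 without WT day 4 replicate b, 12756 without DATG day 4 replicate a and 11456 without DATG day 4 replicate b. The KO count was 11431 without WT day 1 replicate a and 12757 without the doubted KO library. On the first principal component, 67.5% of the variance, day 1 libraries lay between -283.2 and -255.2 and mutant day 4 libraries between 167.6 and 191.9. WT day 4 lay between these groups, at -28.11 and -30.41. On the second principal component, 14.4% of the variance, WT days 4 and 5 lay between 118.6 and 178.3 and the other 11 libraries between -109.0 and -1.88.

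CDH1 fell much less in WT than in either mutant. Its change was -0.28 in WT, -1.35 in DATG and -1.33 in KO, differences of 1.07 and 1.05 (edgeR adjusted p for KO = 5.97e-07, and 3.58e-05 without the doubted library). At day 4 CDH1 held 109 and 114 CPM in WT, 56.0 and 49.8 CPM in DATG and 50.6 CPM in KO. CRIPTO differed in the same direction, with changes of -0.51, -1.55 and -1.68 and 45.6 and 40.9 CPM in WT at day 4 against 16.3 and 16.5 in DATG and 16.2 in KO. POU5F1 fell by 0.82 in WT and by 2.01 in KO (difference 1.19, adjusted p = 0.00439, and 0.00584 without the doubted library), while its DATG change of -1.34 was not shown to differ (adjusted p = 0.162).

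At starts of 2 epithelial genes the genotypes parted further. The CLDN7 start at chr17:7262463-7262663, a tight junction claudin, held 19.3 and 20.5 CPM in WT at day 1 and 16.7 and 15.3 CPM at day 4, a change of -0.31 ± 0.17 that was not called, while in DATG and KO it was -4.72 and -5.78 (adjusted p of the differences 2.53e-12 and 9.24e-11). The CRB3 start, a polarity gene, was at -0.25 in WT, -4.41 in DATG and -4.37 in KO. In WT at day 5 the CLDN7 start held 6.76 and 6.69 CPM, below its day 4 level. Both were chosen after their values were seen.

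Several neural genes had lower changes in WT than in the mutants. PAX6 changed by 0.11 in WT, 0.66 in DATG and 0.62 in KO (adjusted p of the KO difference 0.000454, and 0.0027 without the doubted library). HES5, POU3F2, FEZF2 and SOX21 differed in the same direction from both mutants, SOX1, CDH2 and EOMES from DATG, and SOX3 and ID3 from KO. For KO, FEZF2 (adjusted p = 0.165), SOX21 (0.163) and ID3 (0.0818) did not pass without the doubted library. NODAL fell by 0.93 in WT and 1.34 in DATG, a difference of 0.41. The losses at tRNA genes had a median of -0.71 in WT, -0.67 in DATG and -0.71 in KO. Of the 326 regions 25 differed from DATG and 17 from KO, beside 11.9% and 11.1% of all regions. At 1 to 10 kb from ribosomal protein starts the medians were -1.18, -1.46 and -1.57. By summed counts HESX1, SIX3, LIN28A, SOX2 and RAX were not shown to differ between WT and either mutant. Single regions near them could still differ. At chr2:44942854-44943054, in SIX3, the change was -2.51 in WT, 0.67 in DATG and 0.65 in KO. At chr2:44972886-44973086, outside SIX3, it was 4.30, 2.86 and 2.84.

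**Figure D5:**
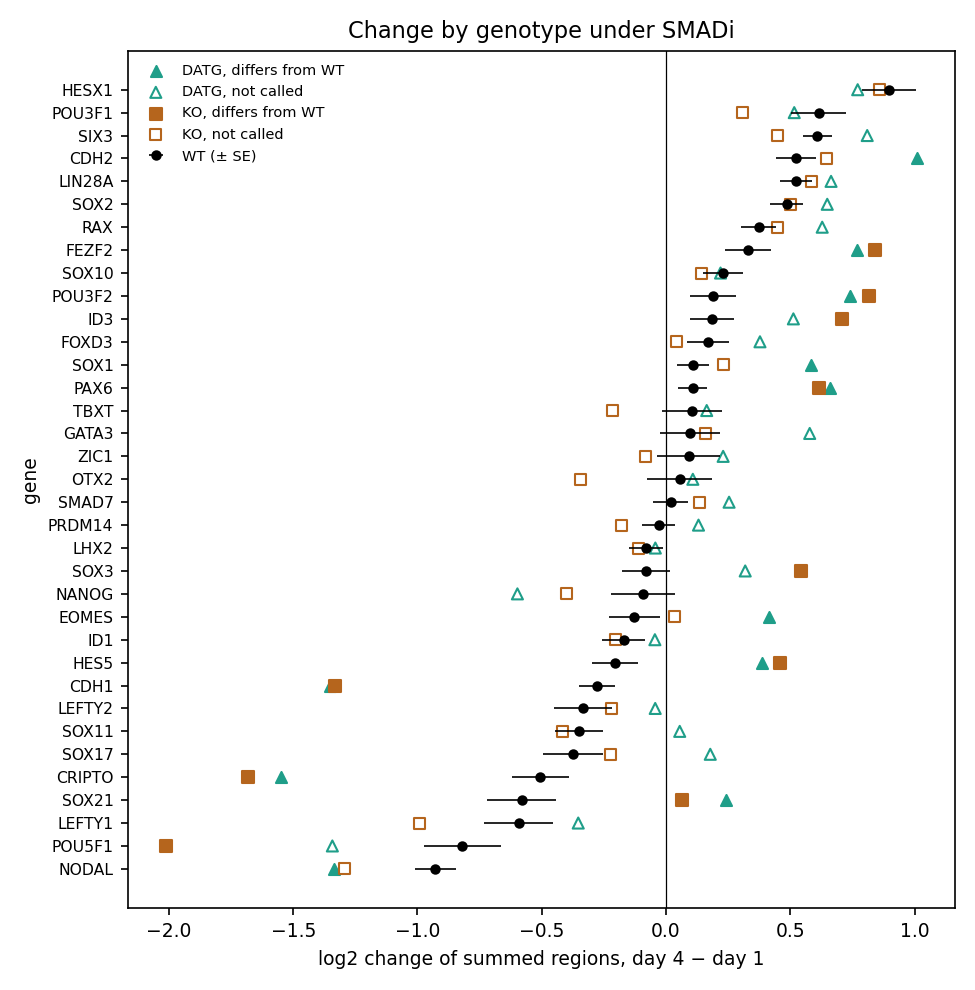
Log2 change of summed regions from day 1 to day 4 (x axis) for the anchor genes reported here (y axis) in WT (black, with SE), DATG (triangles) and KO (squares); filled symbols differ from WT by the interaction test. CDH1, at -0.28 in WT, lies at -1.35 and -1.33 in the mutants, and PAX6, at 0.11, lies at 0.66 and 0.62.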

How the data were processed

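ATAC-seq libraries of H1 cells under SMADi were compared. The authors deposited counts, whole numbers of reads per 201-bp region on GRCh38, not normalized. Per the submitters' processing notes MACS2 and that build were used. The aligner, the treatment of duplicates and any transposase offset were not stated (not given in the sources used here). An offset of a few bases would move reads only at region edges. Reads copied by PCR carry no molecular identifier, so intervals and floors cover counting error only.

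Counts were tested with edgeR 4.0.16 (R 4.3.3, limma 3.58.1): quasi-likelihood F test, TMM scaling, filterByExpr, robust spread, 1 mean per genotype and day over 15 libraries and 9 groups, Benjamini-Hochberg adjustment, called under 0.05. Log2 changes carry an SE. The filter kept 162313 of 162317 regions. The median biological coefficient of variation was 0.136. Libraries a and b were not paired: the correlation of same-letter deviations between WT day 1 and day 4 was -0.103. Counts were also simulated for 20000 regions, with the real depths and each region's mean over all 15 libraries. The test recovered 8.96% of simulated log2 changes of 0.5, 56.7% of those of 1 and 98.5% of those of 2, with 3 false calls. Only 67, 67 and 66 regions were changed at these sizes, a far smaller share than the 33.1% called in the real data. The adjusted p depends on that share, so recovery in the real data may differ.

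Gene positions and start sequences came from RefSeq on GRCh38.p14. Distance was taken to a start where the annotation gives strand and otherwise to the nearer gene end. No genome sequence was used, so motifs were counted in gene-start sequences overlapping a region by at least 100 bp instead of in all regions. Named regions were the 8 with the largest change in each direction at or above the median level, within 50 kb of a protein-coding gene and 1 per gene. Named genes were the 8 with the smallest p in each direction with 3 or more regions, 36 anchor genes (1 of which is not reported here), and up to 3 per list and direction. Members and lists were chosen with earlier results of these data known. Alternatives were other scalings and filters, DESeq2 1.42.0, fewer libraries, thinned counts, other gene windows, a replicate block and single libraries left out; scaling by region class, distances over stranded genes only, crossed letters, assignment to protein-coding genes only, leaving out WT day 5 replicate a and the RNA gene classes were chosen after seeing the data.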

Additional observations from a re-analysis of the deposited data

Results flagged for a closer look

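Each value here is a WT change from day 1 to day 4 minus the same change in a mutant line, and each passed the interaction test of edgeR at an adjusted p of 0.05. Positive values mean that WT lay above the mutant change. DATG day 1 and KO day 4 had 1 library each, and the KO values include the doubted KO day 1 library.

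Against DATG the change differed at 19271 regions. By summed counts CRIPTO (1.04), CDH1 (1.07) and NODAL (0.41) lay above, so these pluripotency and epithelial genes closed less in WT. SOX1 (-0.48), SOX21 (-0.82), PAX6 (-0.55), FEZF2 (-0.44), POU3F2 (-0.55), HES5 (-0.59), CDH2 (-0.49) and EOMES (-0.54) lay below. The region near LMOD2, among the strongest losses in WT, differed by 1.70 because it fell further in DATG.

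Against KO the change differed at 18078 regions. POU5F1 (1.19), CRIPTO (1.18) and CDH1 (1.05) lay above. ID3 (-0.52), SOX3 (-0.63), SOX21 (-0.65), PAX6 (-0.51), FEZF2 (-0.51), POU3F2 (-0.63) and HES5 (-0.66) lay below. Without the doubted library ID3, SOX21 and FEZF2 no longer passed, at -0.42, -0.54 and -0.32.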

How the results depend on the processing

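The count of changed regions, 53684, ranged from 39939 (DESeq2) to 58864 (the 4 libraries alone) over the planned fits that keep every WT day 1 and day 4 library, and from 38813 to 59492 with a library left out, the highest without WT day 5 replicate a. Where a day is left with 1 library, it is assumed to vary like the other groups. With a replicate block it was 51692, with crossed letters 52405. The share of calls that were higher was 62.5%, and 52.8% with scaling from distal regions, which put the share lower within 1 kb at 14.6% and moved the median log2 change of all regions from 0.0032 to -0.103. The count of changed genes, 10940, was 10479 with the replicate block and 7314 to 12394 with a library left out. It was 3159 with only regions within 1 kb and 5151 with protein-coding genes only, both of which test fewer genes. The interaction counts ranged from 11456 to 18374 (DATG; 15928 with the replicate block) and from 11431 to 14518 (KO; 14812) with a library left out.

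Of the values of named regions under alternatives, 3690 kept direction and side of the threshold, 319 kept direction only and 0 reversed. Of named genes 2625 kept both, 220 lost the call, 13 gained it and 25 reversed. With only regions within 1 kb the reversed log2 changes were BTG2 -0.08, CRABP1 -0.40, EGR1 -0.06, EMX1 0.02, F3 -0.41, FLI1 -0.29, LHX5 0.10, LMX1A -0.48, POU3F1 -0.72, RPL3 0.03, RSPO1 -0.19, SOX11 0.40, SOX2 -0.14, TBXT -0.80 and TCF7 0.06. Within 10 kb they were FLI1 -0.25, LMX1A -0.10, PECAM1 -0.54 and RPS23 -0.19. With protein-coding genes only they were ID3 -0.23, LHX5 0.14, NEUROG2 0.27, SOX21 0.53, SPRY4 -0.38 and VIM 0.06. These settings sum other regions, so regions near these genes moved in different directions. Over the region alternatives the share that fell was 46.6% to 69.6% at tRNA genes, 37.8% to 66.7% at snRNA genes and 62.3% to 76.8% at 1 to 10 kb from ribosomal protein starts. For single regions, changes of 0.5 on the log2 scale were mostly not recovered in simulated counts. A far smaller share of regions changed there than was called in the real data.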
